A study of Mus musculus with 4 samples.

Results

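The integrin and laminin genes are 41 of the 43346 genes in the count files of mouse hearts lacking the myocardin-related transcription factors and of wild type hearts. They were chosen by symbol alone, as protein-coding genes for 18 integrin alpha subunits, 8 integrin beta subunits, 5 laminin alpha, 3 laminin beta and 3 laminin gamma chains. The adaptor genes Ilk, Parva, Lims1 and Itgb1bp2, 4 in all, were added. RNA sequencing was done on whole hearts at postnatal day 0 (P0, the day of birth), with 2 libraries of MRTFA/B double knockout (DKO) hearts on a mixed strain background and 2 of wild type (WT) hearts on the ICR background. The labels name no allele, Cre driver or promoter for the knockout, and no treatment in either group. Genotype and strain background cannot be told apart, since each genotype came on its own background. The labels do not say that the libraries of a group came from separate animals, so p-values measure only how far these libraries spread, which could be technical.

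Integrins are cell surface receptors made of an alpha and a beta subunit. They bind matrix proteins outside the cell and, through the cytoplasmic tail of the beta subunit, the actin cytoskeleton inside it. Laminins are cross-shaped trimers of an alpha, a beta and a gamma chain that polymerise into the basement membrane around cardiomyocytes and vessels, and their alpha chain carries most of the sites that integrins and dystroglycan bind. Integrin-linked kinase, PINCH and parvin form a complex that ties beta subunits to actin. MRTFA and MRTFB are actin-sensing coactivators of serum response factor (SRF), which binds the DNA element called the CArG box.

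The libraries held 27328195 and 16175259 counts in DKO hearts and 29460641 and 25205257 counts in WT hearts. Levels below are in CPM (counts scaled to library size, with TMM factors), on which 3 counts in 1 library are 0.106 to 0.184 CPM. Log CPM correlated across genes at r = 0.978 within the DKO pair, 0.992 within the WT pair and 0.970 to 0.981 between groups, and genes are not independent replicates. Mrtfa, 1 of the targeted genes, was at 3.35 and 2.26 CPM in DKO hearts, against 9.06 and 11.1 CPM in WT hearts. Mrtfb was at 45.99 and 49.6 CPM in DKO hearts, against 46.9 and 56.8 CPM in WT hearts, and a count over the whole gene includes exons outside any deleted segment, so it does not check the label. Srf was at 71.9 and 79.4 CPM in DKO hearts, against 111 and 85.6 CPM in WT hearts, and Myocd, the related coactivator, at 133 and 188 CPM in DKO hearts and 140.3 and 159.7 CPM in WT hearts. The heart label fits its markers: 12 of 12 cardiomyocyte markers were detected, with summed levels of 57336 and 54343 CPM in DKO hearts and 61221 and 58819 CPM in WT hearts.

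No member passed the threshold of an adjusted p under 0.05 in the edgeR quasi-likelihood test, out of 37 members tested, and over all 16009 genes tested 12 passed (0.075%). The 4 members with too few counts to test were Itgax, Itgb7, Lama1 and Ilk. At an unadjusted p under 0.05, 4 members were higher in DKO hearts (Itgad, Itgb5, Lama2 and Lama3), where 8.7% of all genes were. Likewise 2 members were lower (Itga2 and Itga9), where 8.63% of all genes were. Both DKO libraries lay above both WT libraries for 13 of the 37 tested members, against 25.8% of all genes tested, and below both for 8, against 25.2%. The median log2 fold change of the tested members, DKO over WT, was 0.09, against 0.01 over all genes tested, and 21 members had a value above 0, as did 51.3% of all genes.

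Other settings of the test called between 0 and 13 members, the most when DKO library 1 was left out. Without DKO library 1, edgeR called 8 members higher (Itga5, Itgad, Itgav, Itgb5, Lama2, Lama3, Lama5 and Lamb1), where 9.0% of all genes were called. In the same fit 5 members were called lower (Itga2, Itga7, Itga9, Itgb6 and Itgb1bp2), where 8.13% of all genes were. Without DKO library 2, it called Itgad and Lamc3 higher, where 3.78% of all genes were, and Itga1 lower, where 4.46% were. Without WT library 1 or WT library 2, it called no member. With no low-count filter, Itgad, Lama2 and Lama3 were called higher, where 2.92% of all genes were, and Itga2, Itga9 and Itgb6 lower, where 3.15% were. DESeq2 called Itgad higher, where 1.76% of all genes were, and no other member. In a fit without 1 library, the group left with 1 library gives no spread of its own. Without a DKO library the spread came from the WT pair alone, whose libraries correlated more closely (r = 0.992) than the DKO pair (0.978). Calls and adjusted p-values of those fits, here and below, take no account of the DKO spread and may be too small.

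Per kilobase of exon, the integrin and laminin genes of the newborn heart spanned a wide range, with few genes of each class carrying most of its transcripts. Itgb1, the beta subunit shared by most matrix-binding integrins, stood at the top with a mean of 303 CPM per kb over the 4 libraries. It was followed by Itgb1bp2 at 112, Lims1 at 89.7, Lamc1 at 84.5 and Lamb1 at 52.1 CPM per kb. Itga5 had the highest level of the alpha subunits at 33.4 CPM per kb, ahead of Itga6 at 19.2 and Itga9 at 16.5 CPM per kb. Lama4 was the highest of the laminin alpha chains at 31.7 CPM per kb, ahead of Lama2 at 17.3 CPM per kb.

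**Figure D1:**
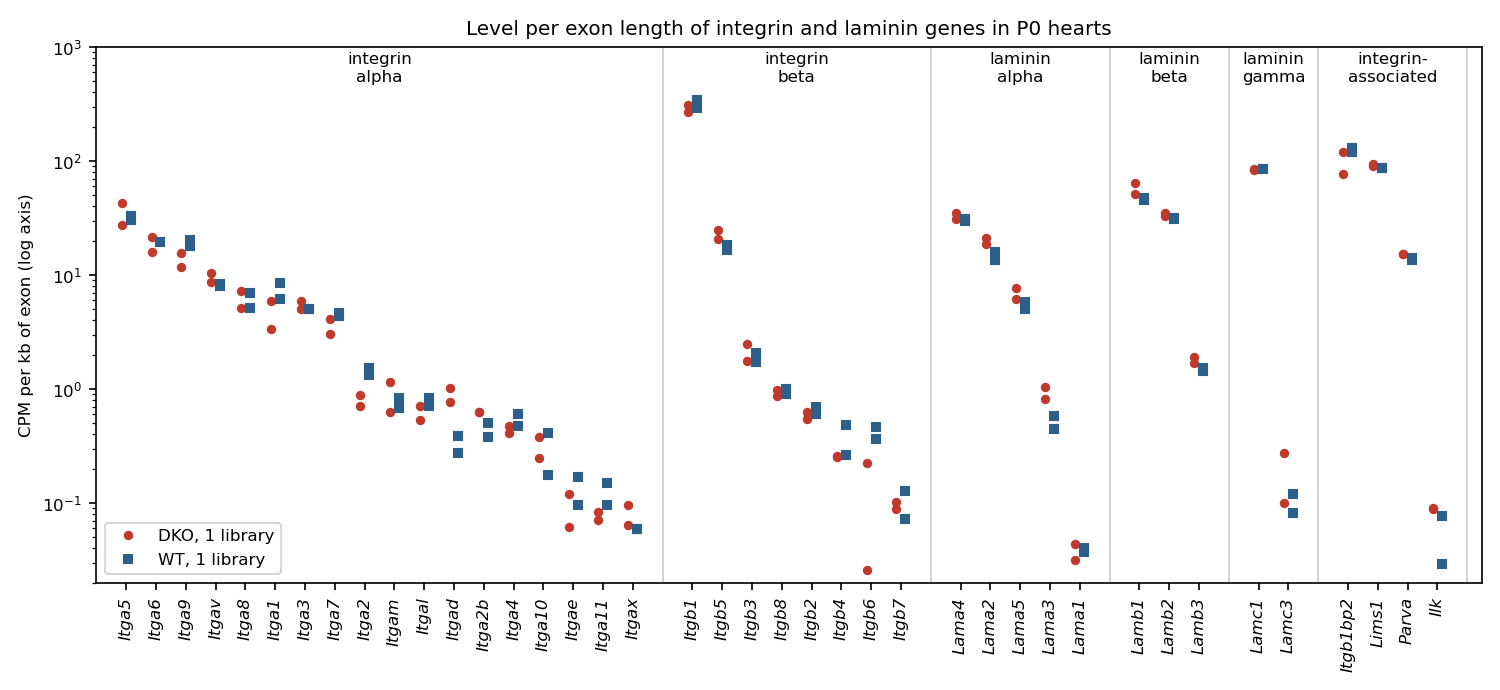
Level of the integrin, laminin and adaptor genes in CPM per kilobase of exon (log axis), with DKO libraries as red circles left of WT libraries as blue squares, grouped by class and ordered by mean level. Itgb1 is the highest at a mean of 303 CPM per kb and Lama1 the lowest at 0.0382 CPM per kb.

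Most laminin genes were somewhat higher in DKO hearts. Of 10 chains tested, 9 had a log2 fold change above 0, with a median of 0.30 against 0.01 over all genes tested. Lamc1, 1 of these 9, was at 0.01 and lay below 0 at -0.00184 with upper-quartile scaling. Both DKO libraries lay above both WT libraries for 6 of the 10, against 25.8% of all genes tested, and below for 0, against 25.2%. No chain passed the adjusted threshold in edgeR or DESeq2, 2 were higher at an unadjusted p under 0.05 in edgeR (Lama2 and Lama3), against 8.7% of all genes, and all but Lama3 and Lamc3 differed by less than 1.5-fold. Endothelial markers, beside which vascular laminins can be set, summed to 1438 and 1489.6 CPM in DKO hearts and 1444 and 1502 CPM in WT hearts. Without overlap, 5 of the 10 endothelial markers were higher, against 25.8% of all genes tested, and 3 lower, against 25.2%. Fibroblast markers summed to 3151 and 4030 CPM in DKO hearts and 3737 and 3999 CPM in WT hearts, and of 10, 1 was higher and 1 lower without overlap. In whole tissue, fewer cells of a type and less RNA per cell cannot be told apart.

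Lama2, the alpha chain of the laminin that surrounds muscle fibres and whose loss causes a congenital muscular dystrophy in humans and mice, was at 306 and 345 CPM in DKO hearts, against 219 and 258 CPM in WT hearts. Both DKO libraries were higher, at 1.36 times the WT mean (log2 fold change 0.45 ± 0.13 SE, edgeR adjusted p = 0.198). The gene lies on the minus strand of chromosome 10, from 26980036 to 27619758 (mm10). Over the 14 other settings its adjusted p ran from 0.0142 to 0.971 and passed in 2, without DKO library 1 and without the low-count filter. Lama4, the alpha chain of vascular and cardiomyocyte basement membranes, was at 370.3 and 424 CPM in DKO hearts, against 373 and 360.3 CPM in WT hearts, and the groups overlapped. Lama5, another vascular alpha chain, was at 70.6 and 86.9 CPM in DKO hearts, against 57.1 and 66.3 CPM in WT hearts (log2 fold change 0.35 ± 0.15 SE, edgeR adjusted p = 0.294), with no overlap.

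Lama3, best known as the alpha chain of the laminin that anchors epidermis, was scarce in these hearts. It was at 8.75 and 11.1 CPM in DKO hearts, against 4.76 and 6.23 CPM in WT hearts, 1.81 times the WT mean (log2 fold change 0.85 ± 0.23 SE, edgeR adjusted p = 0.180, 0.00823 to 0.971 over the 14 other settings and past the threshold in 2). Lamb3, a beta chain that assembles with it, was at 12.7 and 11.1 CPM in DKO hearts, against 9.41 and 10.01 CPM in WT hearts, with no overlap. Per kilobase, Lama3 stood at 0.424 and 0.619 of the level of Lamb3 in DKO hearts, against 0.311 and 0.383 in WT hearts. Epithelial markers stood at summed levels of 10.9 and 11.99 CPM in DKO hearts and 9.41 and 7.55 CPM in WT hearts, with 3 of the 10 tested. Most of that sum was Krt18, at 9.17 and 8.69 CPM in DKO hearts and 6.73 and 5.30 CPM in WT hearts, while Krt5 and Nkx2-1 had 0 counts in all 4 libraries. The part of these markers in the Lama3 values was not tested. Lama1, the alpha chain of early embryonic basement membranes, had 0.306 to 0.423 CPM in DKO hearts and 0.362 to 0.388 CPM in WT hearts.

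Lamb1, the main beta chain by level, was at 508 and 634 CPM in DKO hearts, against 455 and 467 CPM in WT hearts (log2 fold change 0.31 ± 0.14 SE, edgeR adjusted p = 0.334). The groups did not overlap, and DKO library 2 stood well above DKO library 1. Lamb2, the beta chain of synaptic and mature muscle basement membranes, was at 211 and 201 CPM in DKO hearts, against 191 and 189 CPM in WT hearts (edgeR adjusted p = 0.599). Lamc1, the gamma chain of nearly all laminins, was at 696 and 705 CPM in DKO hearts, against 697 and 698 CPM in WT hearts, so that all 4 libraries lay close together. Lamc3, a minor gamma chain, was at 1.66 and 0.612 CPM in DKO hearts, against 0.493 and 0.723 CPM in WT hearts. The high value was DKO library 1 alone, and without DKO library 2 the log2 fold change was 1.45 (edgeR adjusted p = 0.0472), while without DKO library 1 it was 0.02 (0.988).

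The share of each chain within its laminin class was also computed. Lama2 supplied 33.1% and 32.5% of laminin alpha transcripts per kilobase in DKO hearts, against 26.9% and 30.4% in WT hearts. Lama4 supplied 54.4% and 54.1% in DKO hearts, against 62.1% and 57.3% in WT hearts. The groups did not overlap for either share, although the level of Lama4 itself did, and the share of Lama5 overlapped at 11.0% and 11.7% in DKO hearts and 10.1% and 11.2% in WT hearts. Lamc1 made up 95.6% and 95.0% of gamma transcripts in DKO hearts and 94.7% and 95.8% in WT hearts. Summed per kilobase, alpha chains stood at 56.4 and 64.9 CPM per kb in DKO hearts, against 49.8 and 52.1 CPM per kb in WT hearts. Beta chains stood at 87.9 and 98.7 CPM per kb in DKO hearts, against 78.8 and 79.7 CPM per kb in WT hearts. Gamma chains stood at 88.0 and 89.7 CPM per kb in DKO hearts, against 89.0 and 88.1 CPM per kb in WT hearts. Shares within a class are relative, and with 2 libraries against 2 the smallest two-sided exact permutation p is 0.333, so they were not tested.

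**Figure D2:**
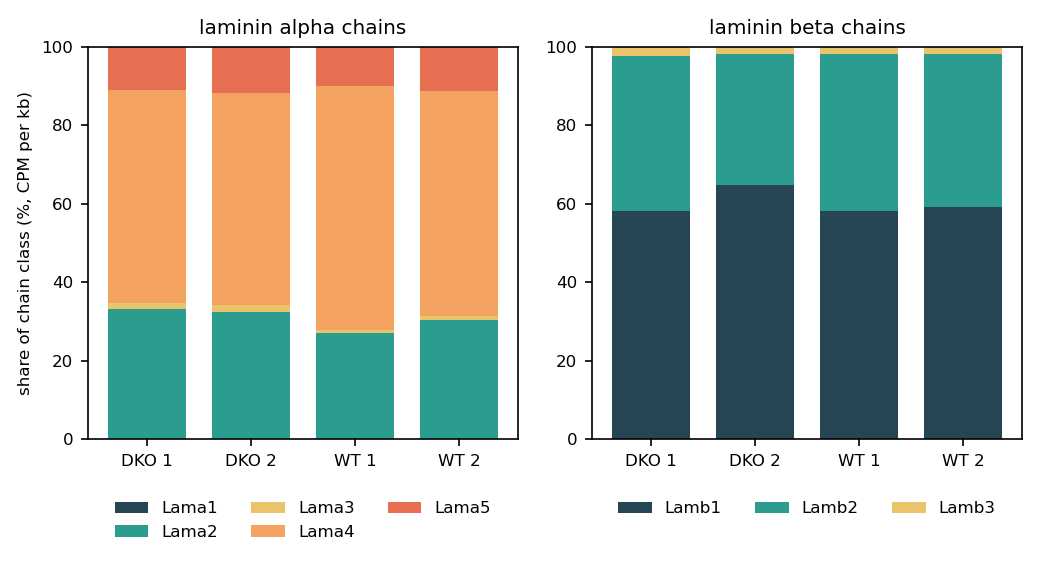
Share of each chain in the transcripts of the laminin alpha and beta classes (%, from CPM per kilobase of exon), 1 stacked bar for each library with the DKO libraries on the left. Lama2 takes 33.1% and 32.5% of alpha chains in the DKO libraries and 26.9% and 30.4% in the WT libraries, and Lamb1 takes 58.3% and 64.8% of beta chains in the DKO libraries and 58.2% and 59.1% in the WT libraries.

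Because MRTFs act through SRF at CArG boxes, the start-site windows of the members were read for that motif. RefSeq windows (build GRCm38.p6, the same assembly as mm10, from 250 bases before to 50 bases after an annotated start) were at hand for 25 members, 31 windows in all. An exact CArG box, which reads alike on both strands, stood in 2 of these windows, those of Lama2 and Itgb6, and in 1.63% of all 32851 windows of the table. The Lama2 window is chr10:27616893-27617192 on the minus strand, and its box begins 39 bases before the start. That start is an annotated transcript start 2816 bases inside the gene. The Itgb6 window with the box is chr2:60673644-60673943 on the minus strand, and its box begins 50 bases before the start. That start lies 48950 bases inside the gene, also at a transcript start. Another Itgb6 window, with a start 40 bases from the gene start, held no exact CArG box. Both windows with a box are shown 5′ to 3′ with the box in capitals, since they are the only member windows with an exact box. Their genes differed in opposite directions, Lama2 higher and Itgb6 lower in both DKO libraries.
Lama2: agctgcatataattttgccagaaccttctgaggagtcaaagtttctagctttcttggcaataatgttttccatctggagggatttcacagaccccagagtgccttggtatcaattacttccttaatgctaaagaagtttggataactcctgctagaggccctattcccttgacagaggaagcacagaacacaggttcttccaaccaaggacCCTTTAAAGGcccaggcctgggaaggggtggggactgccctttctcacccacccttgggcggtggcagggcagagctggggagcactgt
Itgb6: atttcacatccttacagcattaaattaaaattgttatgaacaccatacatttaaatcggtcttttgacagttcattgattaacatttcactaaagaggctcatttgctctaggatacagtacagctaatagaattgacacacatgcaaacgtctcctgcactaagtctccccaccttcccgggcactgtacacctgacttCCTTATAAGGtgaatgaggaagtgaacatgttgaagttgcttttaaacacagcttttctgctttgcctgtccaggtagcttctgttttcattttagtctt

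Allowing 1 core letter other than A or T, a near-CArG stood in the windows of 5 members, these 2 with Itga5, Itgb1 and Lamb1, and in 9.98% of all windows. The further 3 are shown as 30-base excerpts with the near-CArG in capitals. They are Itga5 at chr15:103366897-103366926 on the minus strand, Itgb1 at chr8:128685607-128685636 on the plus strand and Lamb1 at chr12:31265282-31265311 on the plus strand. The near-CArG begins 125 bases before the start in Itga5, 37 in Itgb1 and 1 in Lamb1.
Itga5: tgattcctttCCTCATTAGGaaattttctg
Itgb1: gcctccccctCCTTTTCAGGcgcggctgac
Lamb1: tttctaattcCCTTCTTTGGgccggtgggc

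Of these 5 genes, Lama2 and Lamb1 had both DKO libraries above both WT libraries, Itgb6 had both below, and Itga5 and Itgb1 overlapped. The AP-1 motif TGANTCA, searched on both strands, stood in the windows of Itga3, Itga9 and Itgax and in 7.81% of all windows. The TEAD motif CATTCC, likewise searched on both strands, stood in those of Itga10, Itgb1 and Lamb3 and in 14.7% of all windows. Overlap between these motifs was not counted. A match is a description of these letters in these windows and no evidence of binding.

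Integrin alpha subunits showed no common direction. Of 17 tested, 8 had a log2 fold change above 0 and 9 below, with a median of -0.05 against 0.01 over all genes tested, and Itga6 moved from below to above 0 (0.02) with no composition scaling. The collagen-binding subunits had the lowest median of the ligand classes that hold several members, at -0.65 with 1 of 4 above 0, and the subunits that bind RGD peptides in fibronectin and vitronectin the highest, at 0.19 with 4 of 4 above 0. Of the former, Itga11 had only 12 and 6 counts in DKO hearts and 14 and 19 counts in WT hearts. Itga10 of the former and Itga5 and Itga8 of the latter changed sign in fits without 1 library.

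Itga2, a collagen receptor of platelets and epithelia, was at 6.28 and 5.02 CPM in DKO hearts, against 10.9 and 9.48 CPM in WT hearts. Both DKO libraries were lower, at 0.554 of the WT mean (log2 fold change -0.84 ± 0.20 SE, edgeR adjusted p = 0.159, 0.00811 to 0.971 over the 14 other settings and past the threshold in 2). Its neighbour Itga1, 20.996 kb away on chromosome 13 and the main collagen receptor by level, was at 62.7 and 111 CPM in DKO hearts, against 159 and 115 CPM in WT hearts. The groups did not overlap, but DKO library 2 came close to WT library 2 (log2 fold change -0.67 ± 0.32 SE, edgeR adjusted p = 0.365). Without DKO library 2 the value for Itga1 was -1.13 (edgeR adjusted p = 0.0255), and without DKO library 1 it was -0.31 (0.3505). Itga2 spans 114833081 to 114932100 and Itga1 spans 114953096 to 115101964, both on the minus strand in mm10. Itga11, a collagen receptor of mesenchymal cells, was at 0.423 and 0.367 CPM in DKO hearts and 0.493 and 0.764 CPM in WT hearts. Itga10, known from cartilage, was at 1.97 and 1.28 CPM in DKO hearts and 0.916 and 2.13 CPM in WT hearts.

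Smooth muscle and pericyte markers were lower beside these genes. Summed, they stood at 1624 and 1469 CPM in DKO hearts, against 4149 and 2719 CPM in WT hearts. Without overlap, 7 of 10 markers were lower, against 25.2% of all genes tested, and 0 higher, against 25.8%. Acta2, the smooth muscle actin that led the sum, was at 534.9 and 439 CPM in DKO hearts, against 2962 and 1468 CPM in WT hearts. Without Acta2 the sums were 1089.6 and 1029.6 CPM in DKO hearts and 1188 and 1251 CPM in WT hearts. The pericyte markers Pdgfrb, Kcnj8 and Abcc9 overlapped, while Rgs5, Cspg4 and Notch3 were lower in both DKO libraries. Rgs5 was at 325 and 288 CPM in DKO hearts, against 377 and 391 CPM in WT hearts. Fewer such cells and less RNA of these markers per cell cannot be told apart here. The part of these cells in the values of Itga1 and Itga9, which smooth muscle is known to express, was not tested.

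Of the laminin-binding subunits, Itga3 and Itga6 differed little, while Itga7 was somewhat lower. Itga7, the laminin receptor of striated muscle, was at 33.2 and 24.7 CPM in DKO hearts, against 37.8 and 35.0 CPM in WT hearts, lower in both DKO libraries (log2 fold change -0.33 ± 0.17 SE, edgeR adjusted p = 0.385). Without DKO library 1 it was called lower (-0.56, edgeR adjusted p = 0.0153). Itga6, the laminin receptor of endothelium and many epithelia, was at 195 and 145 CPM in DKO hearts, against 177 and 176 CPM in WT hearts, so the DKO libraries lay on either side of the WT pair. Per kilobase the level of Itga6 was 5.26 times that of Itga7 in both DKO libraries, against 4.20 and 4.50 times in the WT libraries. Itga3, a laminin receptor of epithelia, was at 33.6 and 28.998 CPM in DKO hearts and 28.8 CPM in both WT libraries (edgeR adjusted p = 0.669).

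Among the RGD-binding subunits, Itga5, the main fibronectin receptor, split the DKO pair. It was at 136 and 209.8 CPM in DKO hearts, against 161 and 151 CPM in WT hearts. Without DKO library 1 it was called higher (log2 fold change 0.42, edgeR adjusted p = 0.0250), and without DKO library 2 the value was -0.20 (0.342), so its direction rests on the library. Itgav, which pairs with several beta subunits to bind vitronectin and latent TGF-beta, was at 93.2 and 112 CPM in DKO hearts, against 89.5 and 85.5 CPM in WT hearts (log2 fold change 0.23 ± 0.13 SE, edgeR adjusted p = 0.404, and 0.0450 without DKO library 1). Itga8, the nephronectin receptor, was at 53.2 and 37.7 CPM in DKO hearts and 37.5 and 51.6 CPM in WT hearts, a full overlap. Itga2b, the platelet fibrinogen receptor subunit, was at 3.46 and 3.43 CPM in DKO hearts, against 2.08 and 2.73 CPM in WT hearts (edgeR adjusted p = 0.366). Platelet and megakaryocyte markers beside it summed to 11.7 and 16.1 CPM in DKO hearts and 12.6 and 11.9 CPM in WT hearts.

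Itga9, which binds tenascin-C, osteopontin and VCAM1, was at 119 and 91.2 CPM in DKO hearts, against 157 and 139 CPM in WT hearts. Both DKO libraries were lower, at 0.709 of the WT mean (log2 fold change -0.49 ± 0.16 SE, edgeR adjusted p = 0.213, 0.00189 to 0.971 over the 14 other settings and past the threshold in 2). Itga9 lies on the plus strand of chromosome 9 from 118606690 to 118901003 (mm10). Its relative Itga4, which binds VCAM1 and fibronectin and is needed for epicardial adhesion in the mouse embryo, was at 6.59 and 5.75 CPM in DKO hearts and 6.59 and 8.40 CPM in WT hearts. Epicardial markers summed to 242 and 198 CPM in DKO hearts and 191 and 183 CPM in WT hearts. Tbx18 differed most, at 77.2 and 49.2 CPM in DKO hearts, against 35.1 and 25.5 CPM in WT hearts. The gap between the epicardial sums came from Tbx18, and without it the sums of the groups overlap. Wt1, Upk3b, Upk1b and Msln overlapped. Without overlap, 4 of 9 matched markers were higher, against 25.8% of all genes tested, and 1 lower, against 25.2%.

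Itgad, a subunit of leukocyte integrins found on macrophages, had the highest fold change of the tested members and was called in more settings than any other. It was at 3.46 and 4.59 CPM in DKO hearts, against 1.73 and 1.25 CPM in WT hearts, from 98 and 75 counts in DKO hearts and 49 and 31 counts in WT hearts. Both DKO libraries were higher, at 2.71 times the WT mean (log2 fold change 1.42 ± 0.30 SE, edgeR adjusted p = 0.151, 0.00118 to 0.971 over the 14 other settings and past the threshold in 4). DESeq2 gave an adjusted p of 0.0366, and edgeR gave 0.00333 without DKO library 1 and 0.0314 without DKO library 2. The gene lies on the plus strand of chromosome 7, from 128154376 to 128223816 (mm10). It shares 70 exon bases with Cox6a2 on the opposite strand, a muscle gene at 92.8 and 116 CPM in DKO hearts and 117 and 119 CPM in WT hearts. Whether counting used strand is not given in these sources, so reads of Cox6a2 in those bases cannot be told from reads of Itgad.

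The other leukocyte subunits were read beside Itgad. Itgax, 3.72 kb away, was at 0.458 and 0.306 CPM in DKO hearts, against 0.282 and 0.281 CPM in WT hearts, higher in both DKO libraries but too low to test. Itgam, 11.1 kb beyond Itgax and the alpha subunit of macrophages and neutrophils, was at 3.14 and 5.75 CPM in DKO hearts and 4.16 and 3.42 CPM in WT hearts. Itgal, the lymphocyte subunit that binds ICAM1, was at 4.62 and 3.49 CPM in DKO hearts, against 4.65 and 5.47 CPM in WT hearts. Itgae, the E-cadherin receptor of mucosal T cells, was at 0.282 and 0.551 CPM in DKO hearts and 0.775 and 0.442 CPM in WT hearts. Itgb2, the beta subunit that Itgad, Itgal, Itgam and Itgax pair with, was at 1.90 and 1.65 CPM in DKO hearts and 1.83 and 2.13 CPM in WT hearts. Leukocyte markers summed to 107 and 93.0 CPM in DKO hearts and 89.3 and 85.8 CPM in WT hearts. Without overlap, 3 of 15 were higher, against 25.8% of all genes tested, and 3 lower, against 25.2%. Cd163, a marker of resident macrophages with the highest fold change of the list, was at 5.29 and 11.0 CPM in DKO hearts, against 3.14 and 3.01 CPM in WT hearts. Without Cd163 the leukocyte sums of the groups overlap. Of other macrophage markers, Adgre1, Csf1r and Mrc1 overlapped and Cd68 was higher without overlap. Adgre1 was at 5.71 and 2.69 CPM in DKO hearts and 5.07 and 4.86 CPM in WT hearts. Ptprc, on all leukocytes, was at 5.71 and 2.998 CPM in DKO hearts and 5.07 and 6.35 CPM in WT hearts. The part of leukocytes in the Itgad values was not tested.

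**Figure D3:**
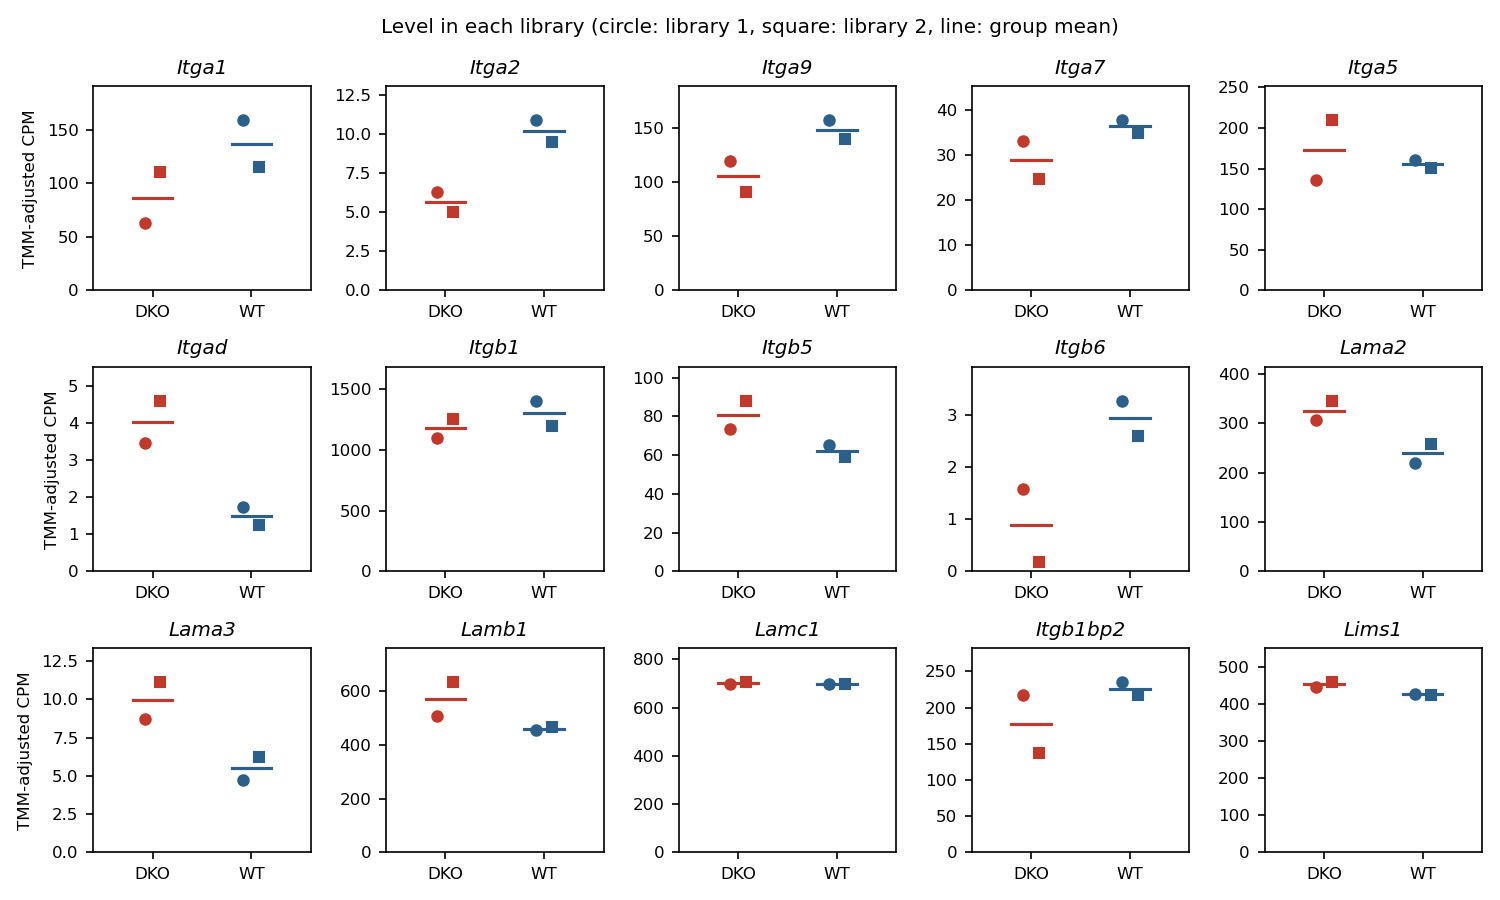
Level of 15 genes in each library in TMM-adjusted CPM, with DKO left of WT, library 1 as a circle, library 2 as a square and the group mean as a line. Itga2, Itga9 and Itgb6 are lower in both DKO libraries, Lama2, Lama3, Itgb5 and Itgad are higher in both, and Itga5 and Itgb1bp2 split the DKO pair.

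Of 7 integrin beta subunits tested, 2 had a log2 fold change above 0 and 5 below, with a median of -0.14, and Itgb8 turned to 0.02 with no composition scaling. Itgb1 dominated the class at 1099 and 1252 CPM in DKO hearts, against 1401 and 1199 CPM in WT hearts, and overlapped (log2 fold change -0.15 ± 0.14 SE, edgeR adjusted p = 0.635). It made up 91.6% and 91.4% of beta subunit transcripts per kilobase in DKO hearts, against 93.9% and 93.3% in WT hearts. It lies on the plus strand of chromosome 8, from 128685654 to 128733200 (mm10).

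Itgb5, which pairs with Itgav to bind vitronectin, was at 73.6 and 87.9 CPM in DKO hearts, against 65.3 and 58.9 CPM in WT hearts. Both DKO libraries were higher, at 1.30 times the WT mean (log2 fold change 0.38 ± 0.13 SE, edgeR adjusted p = 0.235, and 0.0108 without DKO library 1). Its share of beta subunit transcripts was 7.05% and 7.37% in DKO hearts, against 5.03% and 5.26% in WT hearts, which set the 2 groups apart by more than the spread within either. Itgb5 lies on chromosome 16 from 33829665 to 33949338 (mm10), 20.4 Mb from Mrtfb, and Itga5 lies 22.2 Mb from Mrtfa on chromosome 15.

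Itgb6, an epithelial subunit that activates TGF-beta with Itgav, was lower in both DKO libraries but far apart between them. It had 45 and 3 counts in DKO hearts, against 93 and 65 counts in WT hearts, which are 1.59 and 0.184 CPM in DKO hearts and 3.28 and 2.61 CPM in WT hearts. The log2 fold change was -1.59 ± 0.72 SE (edgeR adjusted p = 0.338). Without DKO library 1 it was -3.97 (edgeR adjusted p = 0.000304), and without DKO library 2 it was -0.90 (0.110), so the size rests on DKO library 2 with its 3 counts. The epithelial markers given above summed higher in both DKO libraries. Among the 10 markers, Krt18 was higher without overlap, against 25.8% of all genes tested, and Cdh1 lower, against 25.2%. Cdh1 had 2 and 1 counts in DKO hearts and 10 and 5 counts in WT hearts, too few to test. The part of these markers in the Itgb6 values was not tested. Itgb3, the platelet and vascular partner of Itgav and Itga2b, was at 10.4 and 14.7 CPM in DKO hearts and 10.1 and 12.1 CPM in WT hearts. Itgb8, which also activates TGF-beta with Itgav, was at 10.7 and 9.60 CPM in DKO hearts and 10.1 and 11.1 CPM in WT hearts. Itgb4, the hemidesmosome partner of Itga6, was at 1.80 and 1.77 CPM in DKO hearts, against 1.83 and 3.38 CPM in WT hearts, where the distance comes from WT library 2. Itgb7, the partner of Itgae, was at 0.245 to 0.282 CPM in DKO hearts and 0.201 to 0.352 CPM in WT hearts and was not tested.

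The adaptors that hold integrins to actin were abundant, apart from the recorded count of Ilk. Itgb1bp2 codes for melusin, a striated muscle protein that binds the tail of the beta subunit Itgb1 and protects the mouse heart under pressure load. It was at 217 and 137 CPM in DKO hearts, against 235 and 217 CPM in WT hearts. DKO library 1 lay at the level of WT library 2 and DKO library 2 far below (log2 fold change -0.35 ± 0.22 SE, edgeR adjusted p = 0.471). Without DKO library 1 it was called lower (-0.72, edgeR adjusted p = 0.00141), and without DKO library 2 the value was -0.06 (0.810). Per kilobase, melusin transcripts were 0.448 and 0.248 of those of Itgb1 in DKO hearts and 0.381 and 0.410 in WT hearts. Lims1, which codes for PINCH1, was at 446 and 459 CPM in DKO hearts, against 427 and 424 CPM in WT hearts (log2 fold change 0.09 ± 0.11 SE, edgeR adjusted p = 0.707). Parva, alpha-parvin, was at 154 and 156 CPM in DKO hearts, against 143 and 136 CPM in WT hearts (0.15 ± 0.10 SE, edgeR adjusted p = 0.481). For both genes the DKO libraries lay just above the WT libraries.

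Ilk, which codes for the central protein of that complex, had 7 and 4 counts in DKO hearts and 6 and 2 counts in WT hearts and was not tested. Of its 2744 exon bases, 2461 (89.7%) lie in opposite-strand exons, 2106 of Taf10 and 355 of Rrp8, which leaves 283 bases of its own. Taf10 was at 7.69 and 8.44 CPM in DKO hearts and 8.70 and 8.96 CPM in WT hearts. Neither the strand setting nor the treatment of reads that match overlapping genes is given in the labels or notes, so the low Ilk count need not measure its expression.

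**Figure D4:**
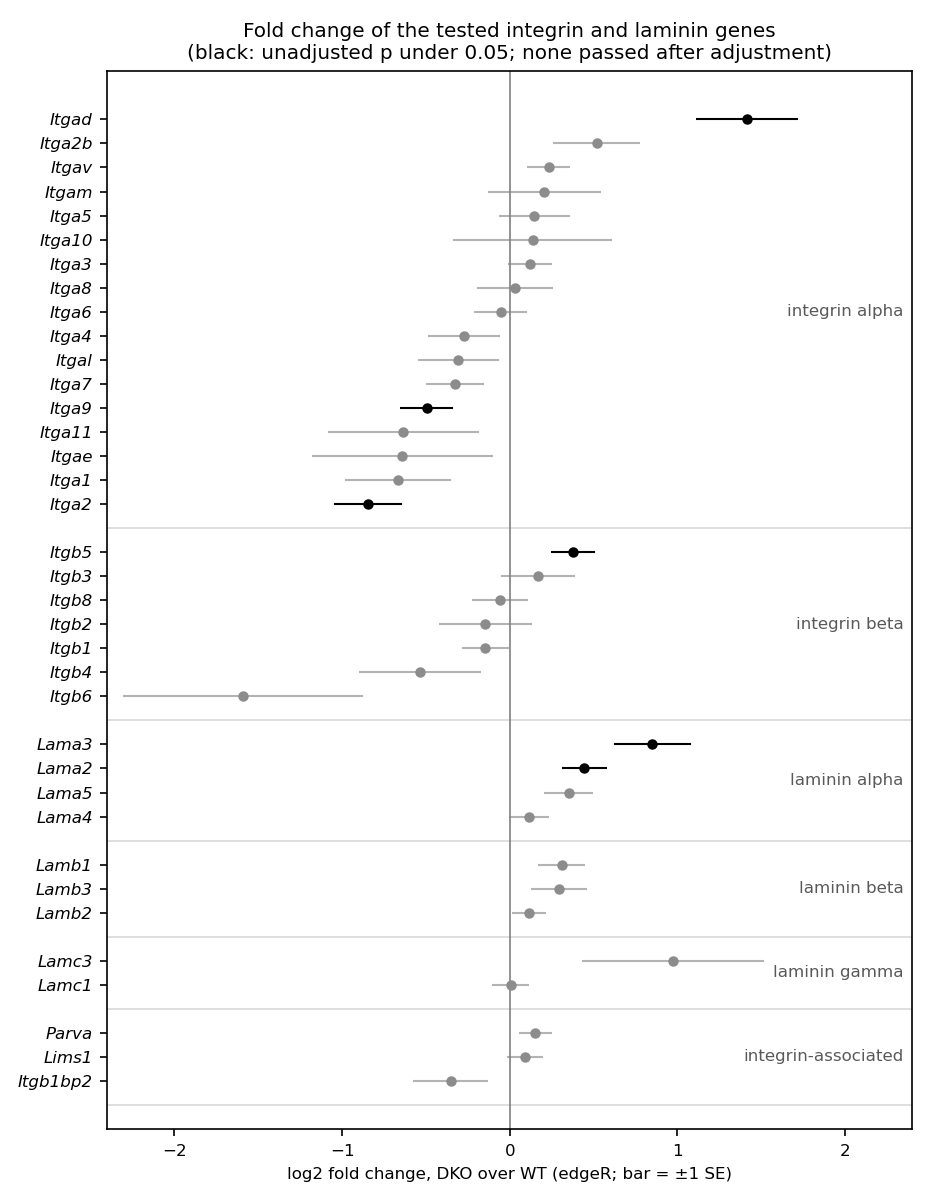
Log2 fold change (DKO over WT) of tested genes from the edgeR fit, with bars of 1 SE, grouped by class and ordered by value. Black marks the 6 genes with an unadjusted p under 0.05, from Itgad at 1.42 to Itga2 at -0.84, and no gene has an adjusted p under 0.05.

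The spread of the members within a group is given here beside their differences between the groups. The former compares single libraries and the latter group means, so their sizes cannot be set directly against each other. The median absolute log2 ratio between the DKO libraries was 0.30 over the tested members and 0.24 over all genes tested, and between the WT libraries it was 0.22 and 0.15 over the same sets. The median absolute log2 fold change between the groups was 0.29 over the members and 0.22 over all genes. The DKO libraries lay more than 1.5-fold apart for 8 tested members (Itga1, Itga10, Itga5, Itgae, Itgam, Itgb6, Lamc3 and Itgb1bp2), against 19.8% of all genes. The WT libraries did so for 4 (Itga10, Itga11, Itgae and Itgb4), against 8.96% of all genes.

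Other genes of the adhesion pathway were read from 7 lists with 116 genes, 111 of them tested, and none passed the adjusted threshold in edgeR. At an unadjusted p under 0.05, 6 were higher, where 8.7% of all genes were, and 7 lower, where 8.63% were. DESeq2 called 3 of them higher, Ntn1 and Thbs4 among them. Without DKO library 1 edgeR called 18 of these genes and 17.1% of all genes, and without DKO library 2 it called 10 and 8.24% of all genes. Of 27 tested genes for talins, kindlins and other focal adhesion proteins, 17 had a log2 fold change below 0, with a median of -0.09, and 10 had both DKO libraries below both WT libraries, against 25.2% of all genes tested, and 2 had both above, against 25.8%. Actn1, an actinin that crosslinks actin filaments at focal adhesions, was at 67.6 and 66.9 CPM in DKO hearts, against 93.4 and 87.6 CPM in WT hearts (-0.43 ± 0.10 SE, edgeR adjusted p = 0.159). Vasp, an actin elongation factor of focal adhesions, was at 37.7 and 41.3 CPM in DKO hearts, against 57.2 and 52.7 CPM in WT hearts (-0.48 ± 0.12 SE, edgeR adjusted p = 0.163). Tns1, a tensin that binds beta subunit tails, was at 647 and 1235 CPM in DKO hearts, against 666 and 687 CPM in WT hearts, with DKO library 2 alone high. The ILK, PINCH and parvin list had 4 of 8 above 0 with a median of 0.04, and the modulators of integrin activity 6 of 16 with a median of -0.01.

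Among proteins that meet laminins in the basement membrane, 8 of 15 had a log2 fold change above 0, with a median of 0.03. Nid2, a nidogen that bridges laminin and collagen IV, was at 79.0 and 72.0 CPM in DKO hearts, against 93.2 and 99.1 CPM in WT hearts (-0.35 ± 0.11 SE, edgeR adjusted p = 0.207). Col4a1, the main collagen IV chain, was at 1153 and 1304 CPM in DKO hearts, against 1459.8 and 1526 CPM in WT hearts (edgeR adjusted p = 0.321). Sparc, a collagen-binding matrix protein, was at 1287 and 1226 CPM in DKO hearts, against 1057 and 1183 CPM in WT hearts (edgeR adjusted p = 0.532). Col4a3, a minor collagen IV chain, was at 5.01 and 5.87 CPM in DKO hearts, against 3.35 and 3.98 CPM in WT hearts (0.57 ± 0.23 SE, edgeR adjusted p = 0.279). In all, 6 of the 15 had both DKO libraries above both WT libraries, against 25.8% of all genes tested, and 5 had both below, against 25.2%.

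The non-integrin laminin receptors, dystroglycan with the sarcoglycans and the enzymes that attach its sugars, had 8 of 15 above 0 and a median of 0.01. Dag1, dystroglycan itself, was at 339.8 and 377 CPM in DKO hearts, against 393 and 408 CPM in WT hearts (edgeR adjusted p = 0.513). Pomt1 and Pomgnt1, enzymes that build the sugar laminin binds, were lower in both DKO libraries. Pomt1 was at 11.5 and 12.5 CPM in DKO hearts, against 17.7 CPM in both WT libraries, and Pomgnt1 at 60.3 and 53.5 CPM in DKO hearts, against 78.6 and 72.7 CPM in WT hearts.

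Other integrin ligands had 14 of 26 above 0 with a median of 0.03. Thbs4, a thrombospondin of muscle and tendon matrix, was at 49.2 and 45.7 CPM in DKO hearts, against 27.9 and 24.6 CPM in WT hearts (0.85 ± 0.13 SE, edgeR adjusted p = 0.121, 5.37e-06 to 0.971 over the 14 other settings, DESeq2 adjusted p = 0.000587). The netrins, guidance proteins with laminin-like domains, had 4 of 4 tested above 0 with a median of 0.57. Ntn1 was at 229.9 and 317 CPM in DKO hearts, against 168 and 170.5 CPM in WT hearts (0.69 ± 0.17 SE, edgeR adjusted p = 0.163, DESeq2 adjusted p = 0.0280).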

How the data were processed

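The authors deposited 1 table of raw gene counts for each library, and the submitters' processing notes name HTSeq, DESeq 1.10.1 and the mm10 build. Details not given in the sources used here cover the aligner, strand setting and annotation release. The tables list 43346 gene IDs and 0 lines naming no gene, and GENCODE M21 (mm10) matched 42462 of them (884 not). Library totals were 16175259 to 29460641 counts.

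Libraries were grouped by the labelled genotype. The counts were fitted in R 4.3.3 with edgeR 4.0.16 (filterByExpr defaults, TMM factors, robust quasi-likelihood test, no covariate, all 4 libraries in 1 fit), and Benjamini-Hochberg adjustment ran over all 16009 genes tested, with a threshold of 0.05. The SE is the absolute log2 fold change divided by the square root of the F statistic. Levels per kilobase divide TMM-adjusted CPM by the GENCODE exon union. Alternatives were other composition factors (RLE, upper-quartile, none), no low-count filter, a stricter filter (a mean of at least 50 counts), no robust estimation, limma-voom (limma 3.58.1), DESeq2 1.42.0, a replicate block and leaving out each library. The fit was tested on simulated data. The labels do not say that replicate numbers pair the samples. Same-numbered libraries deviated with a correlation of -0.105, after which a crossed pairing was added. With 2 libraries in a group, that value cannot show whether the numbers pair the samples.

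The members and gene lists were chosen with earlier results of these data known. The rule for named genes took the members, Mrtfa, Mrtfb, Srf and Myocd. From each further list it took the 2 genes with the highest mean CPM and those with an unadjusted p under 0.05, up to 4 by smallest p. The single marker genes printed were picked once their values had been seen. Some genes that the rule takes are not reported here, while counts, sums and shares over a list include them.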

Additional observations from a re-analysis of the deposited data

How the results depend on the processing

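Over all genes, edgeR called 12 (2 higher, 10 lower). The count was 1514 with no low-count filter, 532 with DESeq2 (281 higher, 251 lower), 2 with the replicate block, 3 with the crossed pairing and 2 to 2795 when 1 library was left out. Of the members edgeR called 0, no low-count filter 6, DESeq2 1 and the fits without 1 library 0 to 13. Among the genes of the 7 partner lists the counts were 0 in edgeR, 10 with no low-count filter, 3 with DESeq2 and 0 to 18 without 1 library. The replicate block called 0 members. Where leaving out a library left 1 sample in a group, that sample was assumed to vary like the other group. The DKO pair spread more than the WT pair, so for fits without a DKO library that assumption did not match these libraries. RLE, upper-quartile and no composition factors, the stricter filter, limma-voom and no robust estimation kept each of these counts within 1.5 times.

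Of 874 alternative values for 63 single genes, 7 changed sign outside the fits without a library. With no composition factors the log2 fold changes of Itga6 and Itgb8 were 0.0191 and 0.0159. Lamc1 was at -0.00184 with upper-quartile factors and -0.0101 with no low-count filter. Sspn was at -0.0110 with limma-voom, -0.00550 with the replicate block and -0.00551 with the crossed block. The cause was not tested. In the fits without 1 library, 15 genes changed sign. Their log2 fold changes ran over these ranges, the lowest first: Itga10 -0.37 to 0.83, Itga5 -0.20 to 0.42, Itga6 -0.29 to 0.14, Itga8 -0.24 to 0.26, Itgam -0.28 to 0.60, Itgb3 -0.10 to 0.40, Itgb8 -0.14 to 0.018, Lamc1 -0.0069 to 0.014, Tns1 -0.067 to 0.87, Arhgef6 -0.052 to 0.36, Sspn -0.29 to 0.27, Col3a1 -0.25 to 0.071, Postn -0.41 to 0.0062, Mrtfb -0.25 to 0.012 and Myocd -0.18 to 0.32.

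Low counts kept Ilk, Itgb7, Lama1 and Itgax out of the test, and among the tested members Itgb6 had a library with 3 counts. DESeq2 gave no adjusted p for Itga11, Itgae and Lamc3.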
